A study of Homo sapiens with 2 samples.

Results

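The 7 genes followed here are ones that NOTCH signalling is known to switch on: HES1, HES4, HES5, HEY1, HEY2, HEYL and NRARP. They were taken from the deposited gene list by symbol, each matched 1 row, and they are 7 of 36601 listed genes. Single-cell RNA was captured with the version 3.1 10x Genomics 3' kit from human inner ear organoids of day 40, as 1 GelNB-CH library and 1 Matrigel library. Both libraries came from WA25 human embryonic stem cells, an established line, with a nuclear tdTomato reporter at SOX2, and both held only reporter-positive cells, sorted after 90 min in Accutase. GelNB-CH is a hydrogel set under UV light with 0.1 wt% PEG4SH, in which aggregates were embedded on day 11, and Matrigel is a basement membrane extract from a mouse tumour. Per the labels' protocols the cells first met FGF-2, BMP-4, SB-431542 and LDN193189 in turn, with 2% growth factor-reduced Matrigel in the medium on day 0, then CHIR99021, an activator of WNT signalling, at 3 µM until day 18, and oDex at 0.02% on day 15. That text is given for both libraries and describes the GelNB-CH embedding only, so the embedding of the Matrigel aggregates is not described in the labels used here. Whether the Matrigel aggregates also met oDex cannot be told from that text. With 1 library per group, made from 1 line, no test between the hydrogels was possible, and every ratio below compares these 2 libraries.

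NOTCH receptors are cut when a ligand on a neighbouring cell binds them, and the freed intracellular part joins the DNA-binding protein RBPJ and MAML co-activators to switch genes on. HES and HEY genes are the best known of these targets: they encode basic helix-loop-helix repressors that hold back differentiation genes such as ATOH1 and the neurogenins. NRARP is also a target and encodes a small ankyrin-repeat protein that feeds back on the NOTCH intracellular domain. In the developing mouse inner ear, JAG1 and NOTCH mark the prosensory domain, and hair cells later carry DLL1 and JAG2 while the supporting cells around them carry HES and HEY genes. In the neural tube HES1 and HES5 keep progenitors from becoming neurons, and in mouse peripheral nerve NOTCH acts on cells of the Schwann lineage.

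The letters through which RBPJ is known to bind DNA, GTGGGAA or TTCCCAC on the other strand, were searched in RefSeq promoter windows (GRCh38.p14) that run from 250 bases before to 50 bases after a gene's start. A window was at hand for 6 of the 7 genes. GTGGGAA on either strand was found in 6.23% of 34796 windows of this length and was present in 5 of these 6, while NRARP had no match in its window. HES1, HES4 and HES5 shared 1 arrangement: a match on the gene's own strand whose first base lay at -85, -77 and -81, counted back from -1, the base before the start. HES5 had a second match on the other strand at -224. HEY2 had one on the other strand at -213 and one at -4 that runs past the start and is not printed, and HEYL one on the other strand at -178. Windows with at least 2 matches made up 0.244% of all windows. The shorter TGGGAA, which every GTGGGAA contains, was in 24.0% of windows, with at least 2 copies in 3.79%. Beyond the copies inside GTGGGAA, HES1 had one at -70 and HEYL one at -99, both on the gene's own strand. The 250 bases before the start are shown for the 3 HES genes, because of the shared position, and for HEY2 and HEYL, whose RNA levels had the most similar pattern over the cells, with GTGGGAA or TTCCCAC in capitals. Positions are counted from RefSeq's start, which is not the gene start given further on from GENCODE v29: the HEY2 and HEYL windows lie wholly inside those GENCODE genes, and those of HES1 and HES4 overlap theirs in part. HES1 is at chr3:194135898-194136147, + strand, HES4 at chr1:1000098-1000347, - strand, HES5 at chr1:2530264-2530513, - strand, HEY2 at chr6:125749382-125749631, + strand, and HEYL at chr1:39639644-39639893, - strand.
HES1: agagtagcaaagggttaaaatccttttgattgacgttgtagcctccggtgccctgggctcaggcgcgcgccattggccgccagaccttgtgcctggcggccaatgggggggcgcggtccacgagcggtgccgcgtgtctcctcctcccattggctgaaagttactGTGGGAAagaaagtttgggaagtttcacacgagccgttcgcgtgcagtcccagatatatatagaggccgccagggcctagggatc
HES4: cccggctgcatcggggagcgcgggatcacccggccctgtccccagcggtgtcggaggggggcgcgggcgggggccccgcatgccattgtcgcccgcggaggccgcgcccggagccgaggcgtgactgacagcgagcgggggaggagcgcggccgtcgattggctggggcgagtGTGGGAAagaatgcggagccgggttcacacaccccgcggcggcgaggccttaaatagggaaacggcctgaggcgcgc
HES5: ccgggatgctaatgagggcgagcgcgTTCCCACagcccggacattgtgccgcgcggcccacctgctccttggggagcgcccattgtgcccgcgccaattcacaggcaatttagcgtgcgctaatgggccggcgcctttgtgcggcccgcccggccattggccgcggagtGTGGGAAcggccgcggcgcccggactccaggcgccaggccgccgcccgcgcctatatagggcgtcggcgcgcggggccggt
HEY2: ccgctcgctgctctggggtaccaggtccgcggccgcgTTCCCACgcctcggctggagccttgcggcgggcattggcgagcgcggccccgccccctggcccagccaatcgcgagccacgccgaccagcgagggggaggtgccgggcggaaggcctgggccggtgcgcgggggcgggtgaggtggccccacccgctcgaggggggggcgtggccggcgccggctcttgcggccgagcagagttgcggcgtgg
HEYL: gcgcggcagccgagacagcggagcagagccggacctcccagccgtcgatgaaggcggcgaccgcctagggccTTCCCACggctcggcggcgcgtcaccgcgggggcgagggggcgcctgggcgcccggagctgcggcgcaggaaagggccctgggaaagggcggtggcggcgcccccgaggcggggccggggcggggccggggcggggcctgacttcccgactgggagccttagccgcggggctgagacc
A match describes these letters and does not show binding.

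Of the deposited barcodes, 18253 of 21743 in GelNB-CH and 9800 of 10912 in Matrigel were kept, with medians of 8558 and 14001.5 unique molecular identifiers (UMIs, 1 per captured RNA molecule). Lineages were set by raw UMIs of 1 gene each: OC90, an otoconial matrix gene, at 5 or more for otic cells, COL1A2, a collagen gene, at 3 or more for mesenchyme, CDH19, a cadherin of the Schwann lineage, at 3 or more for glia, and STMN2, a neuronal tubulin regulator, at 5 or more for neurons. Cells that met exactly 1 minimum numbered 6124 GelNB-CH and 2203 Matrigel cells for otic, 6111 GelNB-CH and 3642 Matrigel cells for mesenchyme, 275 GelNB-CH and 236 Matrigel cells for glia and 934 GelNB-CH and 506 Matrigel cells for neuron. A further 412 GelNB-CH and 1616 Matrigel cells met the glia and mesenchyme minima together, 4125 and 1429 met none, and 78 barcodes occurred in both libraries. Of the marker lists, 11 and 10 of 12 otic markers reached 10 CPM (UMIs of a gene per 1000000 UMIs of the summed cells) in otic-gated cells, 9 of 9 mesenchyme markers in mesenchyme-gated, 10 of 10 Schwann or satellite glia markers in glia-gated and 10 of 10 neuron markers in neuron-gated cells of both libraries. Each of these lists includes the gene that set its gate, which passes by design. The minimum is also low: 10 of 10 cartilage markers reached it in mesenchyme-gated cells of both libraries. SOX2, whose reporter set the sort, had 16.8 and 17.9 CPM over all kept cells. Levels are given in CPM with exact Poisson 95% intervals in parentheses, and ratios are GelNB-CH over Matrigel with exact conditional binomial 95% intervals. Both cover counting error only. The assay counts 1 end of each RNA, so levels were not divided by length, and fewer cells with a gene's RNA cannot be told apart from less of it per cell in a summed level.

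The lineages separated the 7 genes into different patterns. HES1 and NRARP were highest in otic-gated cells in both libraries, HEY1, HEY2 and HEYL were highest in glia-gated cells, HES5 was lowest in otic-gated cells, and HES4 was the most even. The highest lineage stood at least 4-fold above the lowest for 6 of the 7 genes in each library, all but HES4, where 29% of genes in GelNB-CH and 28.5% in Matrigel did so among genes with at least 10 CPM in a lineage. Cells of 1 library share that library, so this order describes it and carries no test.

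**Figure D1:**
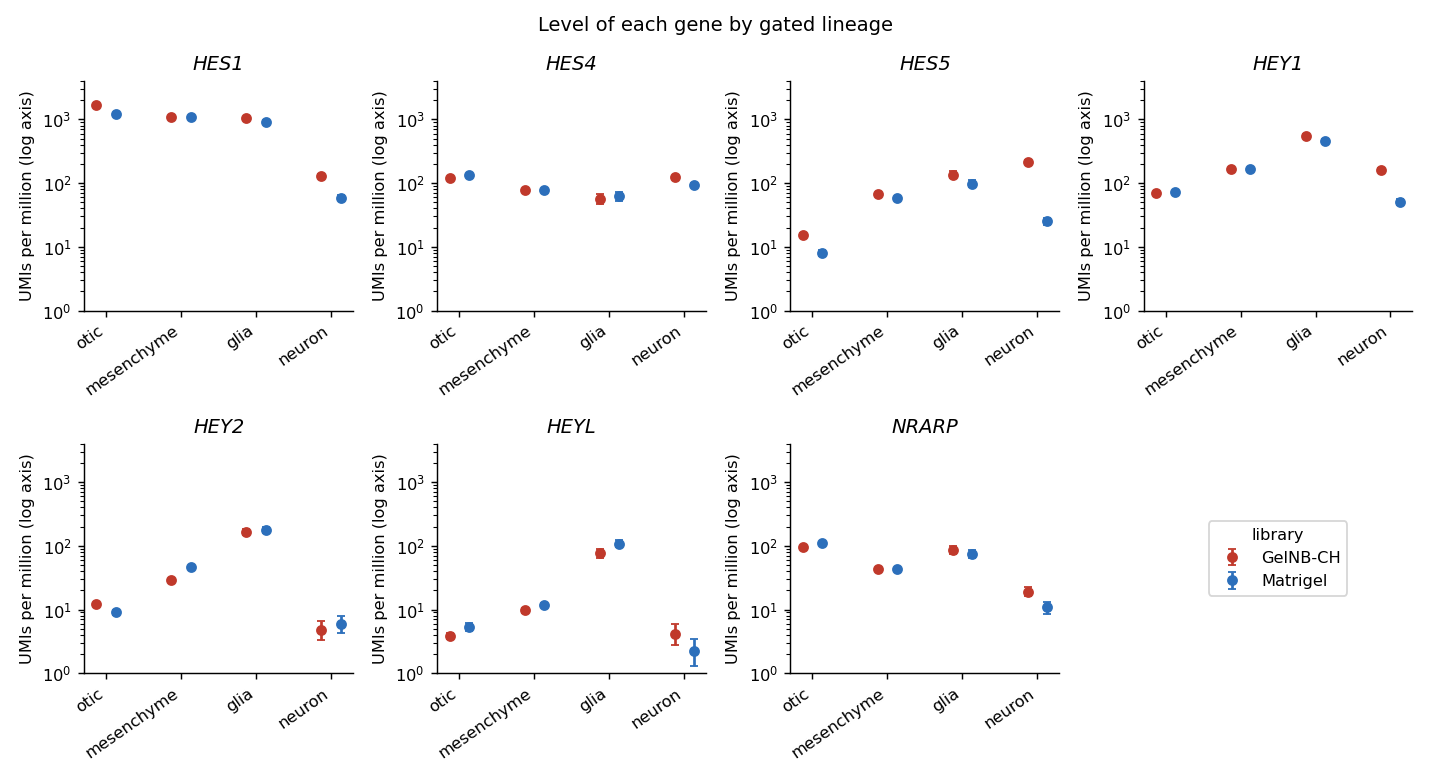
Level of each of the 7 genes in CPM (y, log axis) in otic-, mesenchyme-, glia- and neuron-gated cells (x) of the GelNB-CH and Matrigel libraries. Points are summed levels and bars exact Poisson 95% intervals. HEY2 runs from 166 and 177 CPM in glia-gated cells to 4.78 and 5.89 CPM in neuron-gated cells, and HES5 differs most between the libraries in neuron-gated cells.

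HES1 (ENSG00000114315, GRCh38 chromosome 3, 194136145 to 194138732, + strand), the repressor that many signals besides NOTCH also induce, was the gene with the most UMIs of the 7. Otic-gated cells had 1680.0 (1671 to 1689) CPM in GelNB-CH against 1215 (1204 to 1225) CPM in Matrigel, a ratio of 1.38 (1.37 to 1.40). Mesenchyme-gated cells had 1083 CPM in GelNB-CH against 1095 CPM in Matrigel, with a ratio of 0.989 (0.978 to 1.00), and glia-gated cells 1056 CPM in GelNB-CH against 923 CPM in Matrigel. Neuron-gated cells were far below, at 130.2 CPM in GelNB-CH against 58.9 CPM in Matrigel. In GelNB-CH the mesenchyme and glia levels could not be told apart within their counting intervals, and in Matrigel all 4 lineages could, although among Matrigel cells of 8000 to 16000 UMIs the highest HES1 level was that of mesenchyme-gated cells. At least 1 HES1 UMI was present in 93.6% (GelNB-CH) and 91.8% (Matrigel) of otic-gated cells, and in 24.5% and 21.3% of neuron-gated cells, whose medians were 7067.5 and 14377.5 UMIs against 10049 and 16440 UMIs in otic-gated cells. Thinned to 5000 UMIs per cell, those shares were 89.9% and 81.8% for otic-gated cells and 21.1% and 11.9% for neuron-gated cells.

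The higher HES1 level of GelNB-CH otic cells recurred in most otic clusters. Of 9 clusters with at least 20 otic-gated cells in each library, 8 had ratios between 1.29 and 1.79. The exception was cluster 13, led by the division genes TOP2A and UBE2C beside OC90, at 1321 CPM in GelNB-CH against 1299 CPM in Matrigel, a ratio of 1.02 (0.988 to 1.05). Otic-gated HES1 was highest in cluster 12, which was led by the keratins KRT19 and KRT17 with the claudins CLDN4 and CLDN3, at 3052 CPM in GelNB-CH against 1703 CPM in Matrigel. Cluster 8, led by KRT19, KRT17 and CXCL14, had the lowest GelNB-CH level of these clusters, 723 CPM in GelNB-CH against 561 CPM in Matrigel. In mesenchyme-gated cells the interval of the HES1 ratio lay below 1 in 4 of 12 clusters and above 1 in 2, and the ratios ran from 0.767 in cluster 16 to 1.47 in cluster 22, which was led by CDH19. When each otic cluster was given the same weight in both libraries the otic ratio was 1.47. Among cells of 8000 to 16000 UMIs it was 1.63.

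**Figure D2:**
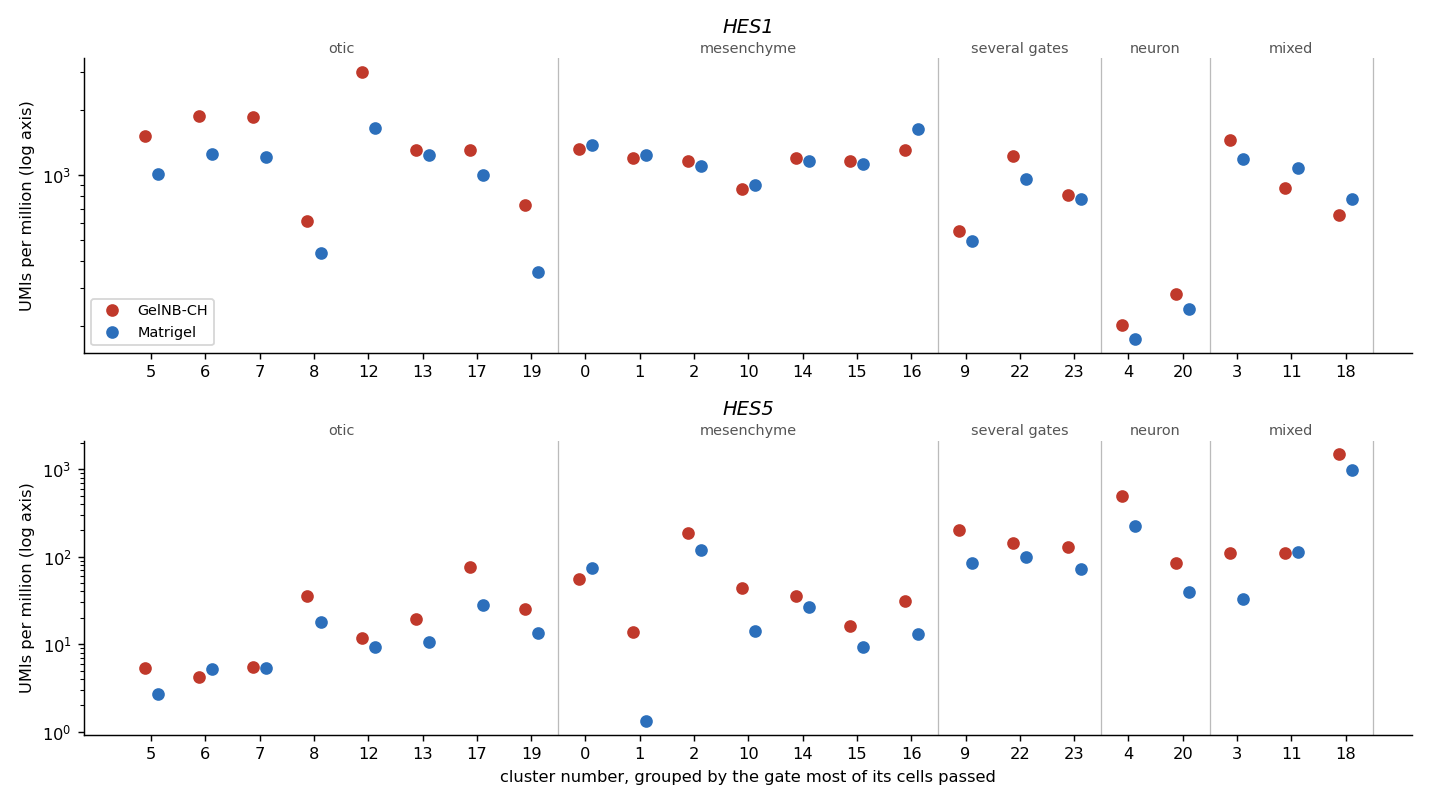
Levels of HES1 (top) and HES5 (bottom) in CPM (y, log axis) in each cluster of at least 50 cells in both libraries (x), all cells of a cluster summed, GelNB-CH points left of Matrigel points. Clusters are grouped by the gate, otic, mesenchyme or neuron, that over 50% of their cells passed alone. Clusters without such a gate are drawn as several gates or as mixed, with cluster 18 among the mixed. HES1 is highest in cluster 12, and HES5 in cluster 18, at 1492 CPM in GelNB-CH against 974 CPM in Matrigel.

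HES4 (ENSG00000188290, GRCh38 chromosome 1, 998962 to 1000172, - strand), a HES1-related repressor that mice lack, varied least with lineage. Its levels were 121 CPM in GelNB-CH against 135 CPM in Matrigel otic-gated cells, 78.5 CPM in GelNB-CH against 78.4 CPM in Matrigel mesenchyme-gated cells, 55.6 CPM in GelNB-CH against 61.9 CPM in Matrigel glia-gated cells and 123 CPM in GelNB-CH against 91.8 CPM in Matrigel neuron-gated cells. The otic and neuron levels of GelNB-CH lay within counting error of each other, and in Matrigel the otic level was higher than the neuron level. The otic ratio between the libraries was 0.896 (0.867 to 0.927), but it was 1.02 with clusters weighted alike and 1.24 among cells of 8000 to 16000 UMIs, so no direction is read from it. Within the otic gate HES4 was concentrated in the KRT19-led cluster 12, the same cluster in which HES1 was highest, at 440.2 CPM in GelNB-CH against 368 CPM in Matrigel, where cluster 5, led by OC90 and LRP2, had 58.6 CPM in GelNB-CH against 55.9 CPM in Matrigel. No cluster of at least 50 cells in both libraries had HES4 at least 1.5-fold apart between them.

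HES5 (ENSG00000197921, GRCh38 chromosome 1, 2528745 to 2530245, - strand), the HES gene regarded as the most direct readout of NOTCH in neural and sensory progenitors, was higher in GelNB-CH over all kept cells and in each of the 4 lineages, though in glia not under every setting. Over all kept cells it had 117 (115 to 119) CPM in GelNB-CH against 57.1 (55.9 to 58.3) CPM in Matrigel, a ratio of 2.05 (2.00 to 2.10). By lineage it was 15.3 CPM in GelNB-CH against 8.07 CPM in Matrigel in otic-gated cells, 68.3 CPM in GelNB-CH against 57.6 CPM in Matrigel in mesenchyme-gated cells, 136 CPM in GelNB-CH against 98.02 CPM in Matrigel in glia-gated cells and 218 CPM in GelNB-CH against 25.2 CPM in Matrigel in neuron-gated cells. Neuron-gated cells were the highest of the 4 lineages in GelNB-CH and the third in Matrigel. Of 20 clusters with at least 50 cells in both libraries and at least 10 CPM in 1 of them, HES5 was at least 1.5-fold higher in GelNB-CH in 15 and at least 1.5-fold lower in 0. All these clusters come from the same libraries and do not repeat the comparison. The share of all genes apart by cluster is not given here, so this count has no background beside it. The cells that met no gate held 13658 of its 21593 UMIs in GelNB-CH and 2680 of 8965 in Matrigel, at 401 CPM in GelNB-CH against 159 CPM in Matrigel.

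HES5 RNA came from few cells, so its counting intervals understate how uncertain its levels are. The cells richest in HES5 that together held 50% of its otic-gated UMIs numbered 21 of 6124 GelNB-CH cells and 17 of 2203 Matrigel cells, and single cells held up to 71 and 20 UMIs. HES5 was detected in 4.15% (GelNB-CH) and 5.58% (Matrigel) of otic-gated cells, and in 2.42% and 2.95% once thinned, an order opposite to that of the levels, and no order is read from the otic shares. The otic ratio was 1.90 (1.68 to 2.14) and was 4.15 with doublets kept. Within the gate it was unlike in different clusters: cluster 3, led by CALB1 and MYBPC1, had 88.3 CPM in GelNB-CH against 4.28 CPM in Matrigel, cluster 17, led by OC90 and HBD, had 61.4 CPM in GelNB-CH against 18.6 CPM in Matrigel, and cluster 6, led by OC90 and SPX, had 2.74 CPM in GelNB-CH against 5.17 CPM in Matrigel. In mesenchyme-gated cells the ratio was 1.19 (1.13 to 1.24), and clusters again went both ways, from 0.547 (0.482 to 0.621) in cluster 11, led by the cartilage genes MATN1 and HAPLN1, to 10.8 (5.05 to 27.6) in cluster 1, led by COL3A1 and COL1A1. The widest contrasts rested on few Matrigel HES5 UMIs, 4 in otic-gated cells of cluster 3 and 7 in mesenchyme-gated cells of cluster 1. In glia-gated cells the ratio of 1.39 (1.17 to 1.66) was 0.877 with the gate minima doubled and 0.750 among cells of 8000 to 16000 UMIs.

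The neuron-gated difference in HES5 was the widest of the 35 ratios of the 7 genes over all kept cells and the 4 lineages, 8.67 (7.49 to 10.1). It too rested on few cells: those that together held 50% of the neuron-gated HES5 UMIs numbered 26 of 934 in GelNB-CH and 5 of 506 in Matrigel, and in glia-gated cells 16 of 275 and 5 of 236. Among neuron-gated cells 15.3% (GelNB-CH) and 5.73% (Matrigel) had a HES5 UMI, and in 14.3% and 4.23% once thinned, against 2.42% and 2.95% of thinned otic-gated cells, the lineage with least HES5. The neuron gate held different cells in the 2 libraries. Cluster 4, led by STMN2, STMN4 and DCC, gave 694 GelNB-CH and 100 Matrigel cells, and cluster 20, led by THSD7B, ANKFN1 and NEUROD1, gave 228 GelNB-CH and 391 Matrigel cells. HES5 was 311 CPM in GelNB-CH against 112 CPM in Matrigel in cluster 4, a ratio of 2.77 (2.32 to 3.33), and 32.9 CPM in GelNB-CH against 6.31 CPM in Matrigel in cluster 20, a ratio of 5.22 (3.56 to 7.74). Giving each cluster the same weight in both libraries gave a ratio of 2.87, and among cells of 8000 to 16000 UMIs it was 3.27. Central nervous system progenitor markers summed to 147 (GelNB-CH) and 141 (Matrigel) CPM in neuron-gated cells, 3 of 10 reached 10 CPM in each, and RAX had 0 UMIs in both and FEZF2 0 in Matrigel. The part of such cells in the HES5 levels was not tested. AL139246.5, which overlaps HES5 on the opposite strand, had 1610 and 1029 UMIs over all kept cells, and the sources used here do not say whether counting used strand.

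By cluster, with gated and ungated cells summed, HES5 was highest in cluster 18, at 1492 CPM in GelNB-CH against 974 CPM in Matrigel. That cluster held 9649 of the GelNB-CH and 1841 of the Matrigel HES5 UMIs. It had 678 GelNB-CH and 122 Matrigel cells, 75.2% of which met no gate, was led by C1orf61, RFX4 and RMST with HES5 itself among its 10 leading genes, and was left unnamed. HES4 was at 309 CPM in GelNB-CH against 269.8 CPM in Matrigel there and NRARP at 86.8 CPM in GelNB-CH against 49.2 CPM in Matrigel, while HES1 was at 656 CPM in GelNB-CH against 776 CPM in Matrigel. These levels describe a cluster that HES5 helped to define. Its 135 GelNB-CH and 41 Matrigel mesenchyme-gated cells held 917 of 3924 and 408 of 3117 HES5 UMIs of the mesenchyme gate.

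HEY1 (ENSG00000164683, GRCh38 chromosome 8, 79764010 to 79767863, - strand), a HES-related repressor of early prosensory cells and of vessels, was highest in glia-gated cells, at 553 (522 to 584) CPM in GelNB-CH against 464 (436 to 492) CPM in Matrigel. Mesenchyme-gated cells had 167 CPM in GelNB-CH against 168 CPM in Matrigel, otic-gated cells 70.3 CPM in GelNB-CH against 73.2 CPM in Matrigel and neuron-gated cells 163 CPM in GelNB-CH against 50.8 CPM in Matrigel. The glia level stood 3.31-fold in GelNB-CH and 2.75-fold in Matrigel above the next lineage, and mesenchyme and neuron levels of GelNB-CH did not differ beyond counting error. Between the libraries HEY1 differed by less than 1.5-fold in otic-, mesenchyme- and glia-gated cells, and in neuron-gated cells its ratio was 3.21 (2.87 to 3.60). That ratio was 1.45 with the 2 neuron clusters weighted alike in both libraries. HEY1 was 209.8 CPM in GelNB-CH against 153 CPM in Matrigel in cluster 4 and 59.99 CPM in GelNB-CH against 30.6 CPM in Matrigel in cluster 20. Within the otic gate HEY1 was unevenly spread, with 359 CPM in GelNB-CH against 313 CPM in Matrigel in the CALB1-led cluster 3, 195 CPM in GelNB-CH against 154 CPM in Matrigel in cluster 17 and 43.2 CPM in GelNB-CH against 54.7 CPM in Matrigel in cluster 5.

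HEY2 (ENSG00000135547, GRCh38 chromosome 6, 125747664 to 125761269, + strand), a repressor of heart and vessel development and of the mouse cochlea's supporting cells, and HEYL (ENSG00000163909, GRCh38 chromosome 1, 39624153 to 39639945, - strand), its relative in mouse smooth muscle and sensory neurons, were highest in glia-gated cells by a wide margin. HEY2 was 166 (150.0 to 184) CPM in GelNB-CH against 177 (161 to 195) CPM in Matrigel in glia-gated cells, 29.1 CPM in GelNB-CH against 45.8 CPM in Matrigel in mesenchyme-gated, 12.01 CPM in GelNB-CH against 9.06 CPM in Matrigel in otic-gated and 4.78 CPM in GelNB-CH against 5.89 CPM in Matrigel in neuron-gated cells. HEYL was 76.1 (65.1 to 88.4) CPM in GelNB-CH against 108 (95.4 to 123) CPM in Matrigel in glia-gated cells, 9.77 CPM in GelNB-CH against 11.8 CPM in Matrigel in mesenchyme-gated, 3.84 CPM in GelNB-CH against 5.35 CPM in Matrigel in otic-gated and 4.12 CPM in GelNB-CH against 2.21 CPM in Matrigel in neuron-gated cells. The glia level of HEY2 was 5.71-fold in GelNB-CH and 3.87-fold in Matrigel above the next lineage, and that of HEYL 7.79-fold and 9.20-fold. Thinned cells with a HEY2 UMI were 50.6% of GelNB-CH and 51.6% of Matrigel glia-gated cells, against 1.76% and 2.41% of neuron-gated cells, and a HEYL UMI was in 28.1% and 32.8% of glia-gated against 1.08% and 1.61% of neuron-gated cells. The cells that met the glia and mesenchyme minima together had 233 CPM in GelNB-CH against 245 CPM in Matrigel of HEY2 and 81.4 CPM in GelNB-CH against 90.8 CPM in Matrigel of HEYL.

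Over all kept cells HEY2 and HEYL were lower in GelNB-CH, at 29.9 CPM in GelNB-CH against 69.0 CPM in Matrigel for HEY2, a ratio of 0.434 (0.420 to 0.448), and 11.3 CPM in GelNB-CH against 25.8 CPM in Matrigel for HEYL, a ratio of 0.436 (0.413 to 0.460). The ratios became 0.959 and 0.870 when the clusters of both libraries were weighted to the same make-up, and within glia-gated cells they were 0.939 (0.813 to 1.08) and 0.701 (0.574 to 0.856). Cells that met the CDH19 minimum alone or with that of COL1A2 were 1.51% and 2.26% of kept cells in GelNB-CH and 2.41% and 16.5% in Matrigel. In mesenchyme-gated cells HEY2 had a ratio of 0.635 (0.597 to 0.676), which was 0.925 with clusters weighted alike. The gate there held 161 GelNB-CH and 367 Matrigel cells of cluster 9, led by CDH19 and COL19A1, in which HEY2 was 214 CPM in GelNB-CH against 253 CPM in Matrigel. Of 10 Schwann or satellite glia markers, 6 reached 10 CPM in GelNB-CH and 10 in Matrigel mesenchyme-gated cells, none was at 0 UMIs, and they summed to 773 and 1053 CPM. Their part in the HEY2 ratio was not tested. In otic-gated cells HEY2 was on the other side, with a ratio of 1.32 (1.18 to 1.496), but it reached 10 CPM there in GelNB-CH only. Of 9 otic clusters 4 had a counting interval wholly above 1 and none one below. HEY2 was under 10 CPM in both libraries in clusters 5 and 7 of these 4. The clusters come from the same libraries and do not repeat the comparison. The genes overlapping HEY2 and HEYL on the opposite strand, AL365259.1 and AL035404.2, had 298 and 10 UMIs in GelNB-CH and 651 and 3 in Matrigel, beside 5527 and 2078 for HEY2 and HEYL in GelNB-CH and 10829 and 4050 in Matrigel.

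NRARP (ENSG00000198435, GRCh38 chromosome 9, 137300482 to 137302251, - strand), the feedback gene of the group, was 96.5 (94.3 to 98.8) CPM in GelNB-CH against 111 (108 to 115) CPM in Matrigel in otic-gated cells. Glia-gated cells had 85.9 CPM in GelNB-CH against 75.4 CPM in Matrigel, mesenchyme-gated cells 43.6 CPM in GelNB-CH against 42.5 CPM in Matrigel and neuron-gated cells 19.0 CPM in GelNB-CH against 10.8 CPM in Matrigel. Otic and glia levels lay within counting error of each other in GelNB-CH but not in Matrigel. The ratio between the libraries was 0.866 (0.835 to 0.899) in otic-gated and 1.03 (0.969 to 1.09) in mesenchyme-gated cells, and 1.76 (1.34 to 2.32) in neuron-gated cells, where it was 1.44 with clusters weighted alike. Within the otic gate NRARP, like HES1 and HES4, was highest in cluster 12, at 219 CPM in GelNB-CH against 159.9 CPM in Matrigel. The interval of its ratio lay above 1 in otic-gated cells of clusters 3, 12 and 17 and below 1 in clusters 6, 8 and 13.

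Counted together, 3 of the 7 genes were at least 1.5-fold apart between the libraries over all kept cells, HES5 higher and HEY2 and HEYL lower in GelNB-CH, where 7.45% of 10568 genes with at least 10 CPM were apart in either direction. Otic-gated cells had 1 of 6 genes with enough RNA apart (HES5, background 6.46%), mesenchyme-gated cells 1 of 7 (HEY2, background 5.42%) and glia-gated cells 0 of 7 (background 22.1%). In otic-gated cells HES5 and HEY2 reached 10 CPM in GelNB-CH only, so both were among the 6 through that library. Neuron-gated cells had 4 of 5 apart, HES1, HES5, HEY1 and NRARP, all higher in GelNB-CH, where 19.5% of genes were apart in either direction. Like HES5, the other genes apart there rested on few cells. The 10% of neuron-gated cells richest in each gene held 83.6% of HES1, 72.3% of HEY1 and 91.6% of NRARP UMIs in GelNB-CH. Matrigel shares were 87.1% for HES1, 80.0% for HEY1 and 96.6% for NRARP. Counting intervals may therefore understate how uncertain these neuron-gated levels are. The median log2 ratio of the members with enough RNA was 1.14 in neuron-gated cells and 0.17 in otic-gated cells, beside medians of -0.01 and -0.02 over all genes with enough RNA. With clusters weighted alike 1 gene was apart over all kept cells and 2 in neuron-gated cells, HES1 and HES5. HES1 in neuron-gated cells had nearly the same ratio in both neuron clusters, 2.09 (1.61 to 2.75) in cluster 4 and 2.18 (1.86 to 2.55) in cluster 20, and was 1.38 when cells of several gates were kept in each lineage.

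**Figure D3:**
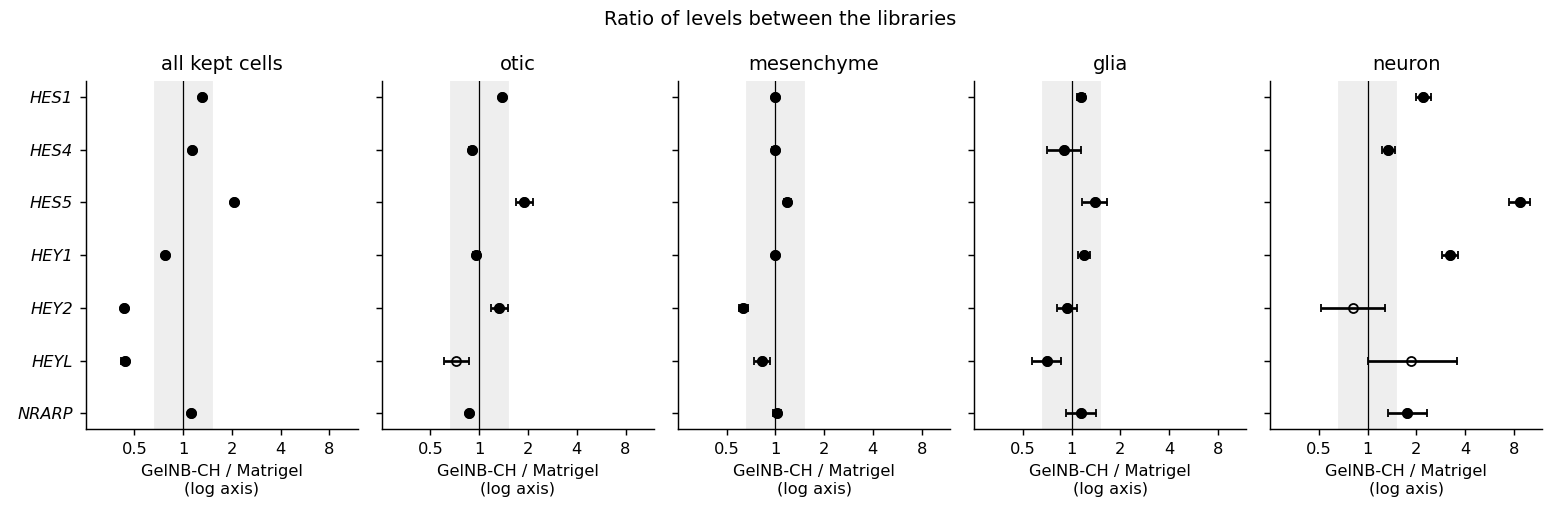
Ratio of each gene's level, GelNB-CH over Matrigel (x, log axis), over all kept cells and in each gated lineage, with exact 95% counting intervals. Open points are genes under 10 CPM in both libraries, and the grey band spans ratios within 1.5-fold. The neuron panel holds the ratios farthest to the right, with HES5 at 8.67.

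Single cells carried the genes in combination most often in glia. After thinning to 5000 UMIs, 70.2% of GelNB-CH and 57.5% of Matrigel glia-gated cells expressed 3 or more of the 7 genes at 1 UMI or above, and 64.8% and 63.9% of cells meeting the glia and mesenchyme minima did. The shares were 24.2% and 26.2% in otic-gated cells, 26.96% and 27.5% in mesenchyme-gated cells and 13.6% and 5.43% in neuron-gated cells. None of the 7 was detected in 37.0% of GelNB-CH and 50.3% of Matrigel neuron-gated cells.

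**Figure D4:**
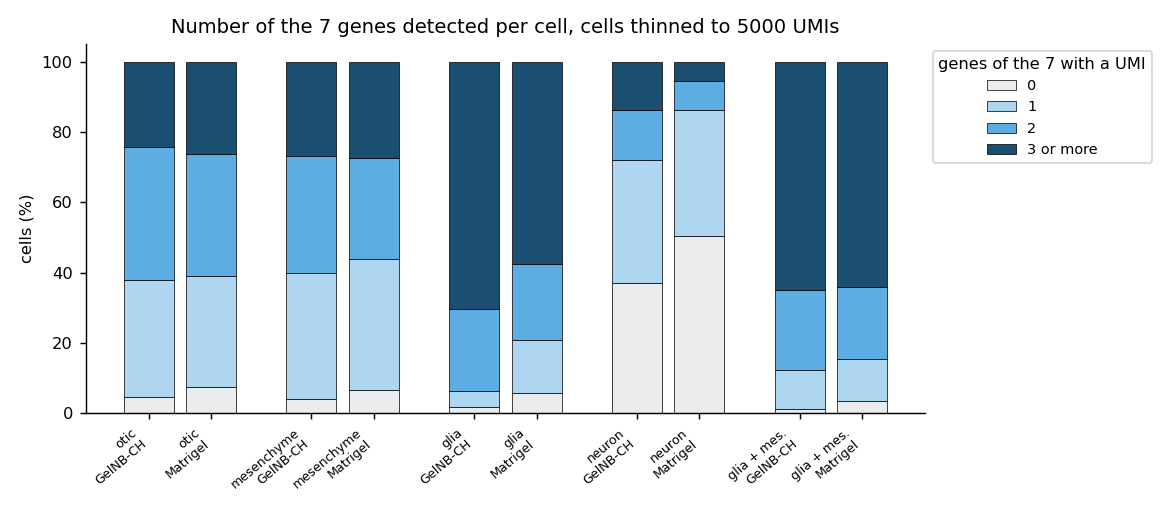
Share of cells (y, percent) in which 0, 1, 2 or 3 and more of the 7 genes were detected, in cells thinned to 5000 UMIs, by gated lineage, GelNB-CH bars left of Matrigel bars. The last pair is the cells that met the glia and mesenchyme minima together, and neuron-gated cells have the most without any of the 7.

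The rest of the pathway was a list of 34 receptors, ligands, modifiers, co-factors and other HES-like genes. Its share of genes apart between the libraries was above that of all genes only in neuron-gated cells. Counting members at least 1.5-fold apart among those with at least 10 CPM, GelNB-CH had 0 higher and 1 lower of 22 over all kept cells, 0 higher and 0 lower of 20 in otic-gated, 0 higher and 1 lower of 21 in mesenchyme-gated, 2 higher and 2 lower of 21 in glia-gated and 4 higher and 5 lower of 20 in neuron-gated cells. Over all genes with enough RNA 7.45% were apart over all kept cells, 6.46% in otic-gated, 5.42% in mesenchyme-gated, 22.1% in glia-gated and 19.5% in neuron-gated cells, so the glia-gated count is near the background. The 1 gene apart in mesenchyme was BHLHE40, a stress- and hypoxia-induced relative of the HES repressors, at 21.4 CPM in GelNB-CH, 36.2 CPM in Matrigel, and the 1 over all cells TLE1, a co-repressor that HES proteins recruit, at 68.7 CPM in GelNB-CH, 104 CPM in Matrigel. In neuron-gated cells ID2 (84.9 CPM in GelNB-CH, 38.8 CPM in Matrigel) and ID3 (133 CPM in GelNB-CH, 64.2 CPM in Matrigel), inhibitors of helix-loop-helix factors, were higher in GelNB-CH together with the NOTCH co-activator MAML2 (179 CPM in GelNB-CH, 114 CPM in Matrigel) and the co-repressor TLE4 (99.6 CPM in GelNB-CH, 64.5 CPM in Matrigel). MAML3 (379.5 CPM in GelNB-CH, 614 CPM in Matrigel), TLE1 (111 CPM in GelNB-CH, 193 CPM in Matrigel), TLE2 (3.32 CPM in GelNB-CH, 10.2 CPM in Matrigel) and the fringe enzymes MFNG (6.51 CPM in GelNB-CH, 21.2 CPM in Matrigel) and LFNG (7.31 CPM in GelNB-CH, 12.3 CPM in Matrigel), which modify NOTCH, were lower there. In glia-gated cells ID1 (344 CPM in GelNB-CH, 176 CPM in Matrigel) and ID2 (163 CPM in GelNB-CH, 69.7 CPM in Matrigel) were higher in GelNB-CH and DTX4 (8.01 CPM in GelNB-CH, 26.1 CPM in Matrigel), a NOTCH ubiquitin ligase, and TLE4 (54.7 CPM in GelNB-CH, 98.9 CPM in Matrigel) lower. DTX4 there, and TLE2, MFNG and LFNG in neuron-gated cells, reached 10 CPM in Matrigel only, so they entered the counts through that library. Melanocyte markers summed to 378 (GelNB-CH) and 89.7 (Matrigel) CPM in glia-gated cells, with 4 and 3 of 7 at 10 CPM or more, and cartilage markers to 1010.2 (GelNB-CH) and 402 (Matrigel) CPM, with 10 and 6 of 10, and none of either list was at 0 UMIs. The part of these cells, and of the unequal make-up of the gates, in these differences was not tested.

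Receptors and ligands differed between lineages. In otic-gated cells the receptor with most UMIs was NOTCH2 in GelNB-CH (52.1 CPM) and NOTCH1 in Matrigel (49.6 CPM). NOTCH1 was close behind in GelNB-CH, at 48.2 CPM over 6121 of the 6124 otic-gated cells, and no change of leading receptor is read from this. In mesenchyme- and glia-gated cells it was NOTCH2 that led in both libraries (mesenchyme 78.6 CPM in GelNB-CH, 74.1 CPM in Matrigel, and glia 89.9 CPM in GelNB-CH, 91.1 CPM in Matrigel). JAG1, the ligand of the prosensory domain, led the ligands in otic-gated (143 CPM in GelNB-CH, 208 CPM in Matrigel), mesenchyme-gated (42.4 CPM in GelNB-CH, 40.3 CPM in Matrigel) and glia-gated cells (93.9 CPM in GelNB-CH, 91.5 CPM in Matrigel). In neuron-gated cells DLL3, a ligand that acts inside the cell, led at 100.4 CPM in GelNB-CH, 94.1 CPM in Matrigel, and all 4 receptors were under 10 CPM in both libraries, NOTCH1 at 5.31 CPM in GelNB-CH, 8.10 CPM in Matrigel. JAG1 in otic-gated cells had a ratio of 0.685 (0.666 to 0.705), within 1.5-fold. RBPJ was present in every lineage, from 138 to 175 CPM in GelNB-CH and from 151 to 191 CPM in Matrigel. HES3 and HELT stayed under 1 CPM in every lineage.

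Hair cell-like cells, those in which 8 or more of 16 hair cell markers were detected, numbered 15 in GelNB-CH and 12 in Matrigel and all lay in cluster 26. Their HES1 level was low: 369.8 (GelNB-CH) and 216 (Matrigel) CPM in hair cell-like cells, against 1681 (GelNB-CH) and 1217 (Matrigel) CPM in the other otic-gated cells. HES1 ratios of hair cell-like to other otic-gated cells were 0.220 (0.176 to 0.272) for GelNB-CH and 0.178 (0.142 to 0.220) for Matrigel. A HES1 UMI was found in 9 of the 15 GelNB-CH and 5 of the 12 Matrigel hair cell-like cells, although their medians of 11255 and 21239 UMIs were above those of the other otic-gated cells, 10044 and 16439. NRARP was lower too, at 26.1 (GelNB-CH) and 33.5 (Matrigel) CPM in hair cell-like cells, against 96.6 (GelNB-CH) and 112 (Matrigel) CPM in the other otic-gated cells. It rested on 6 and 13 UMIs, in 5 hair cell-like cells of each library. HES4 had ratios of 0.504 (0.275 to 0.846) for GelNB-CH and 0.229 (0.118 to 0.400) for Matrigel, on 14 UMIs in 5 cells and 12 UMIs in 2 cells.

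HES5 and HEY2 lay on the other side in these cells. HES5 was 178 (GelNB-CH) and 46.4 (Matrigel) CPM in hair cell-like cells, against 15.2 (GelNB-CH) and 7.81 (Matrigel) CPM in the other otic-gated cells, but 5 cells in each library carried all of its 41 and 18 UMIs. The Matrigel ratio of 5.94 (3.48 to 9.53) was 3.16 with cells of at least 5 markers, an alternative chosen after the data were seen. HEY2 rested on 10 and 9 UMIs, with ratios of 3.65 (1.74 to 6.74) and 2.57 (1.17 to 4.94). The HEY1 ratio intervals included 1 in both libraries. HEYL had 3 UMIs in GelNB-CH and 0 of 388005 UMIs in Matrigel, for which the limit of 3 counts is 7.73 CPM and the exact Poisson upper bound 9.51 CPM. Ligands known from mouse hair cells were present: DLL1 was 74.0 (GelNB-CH) and 69.6 (Matrigel) CPM in hair cell-like cells, against 6.02 (GelNB-CH) and 5.78 (Matrigel) CPM in the other otic-gated cells. JAG2 was 52.2 (GelNB-CH) and 30.9 (Matrigel) CPM in hair cell-like cells, against 3.29 (GelNB-CH) and 4.23 (Matrigel) CPM in the other otic-gated cells, and JAG1 was 34.8 (GelNB-CH) and 137 (Matrigel) CPM in hair cell-like cells, against 143 (GelNB-CH) and 208 (Matrigel) CPM in the other otic-gated cells. HES6, a HES relative that promotes differentiation and counters HES1, was 2654 (GelNB-CH) and 2214 (Matrigel) CPM in hair cell-like cells, against 13.4 (GelNB-CH) and 11.8 (Matrigel) CPM in the other otic-gated cells. Hair cell-like cells were chosen by markers that do not include these genes, and 3 of 15 in GelNB-CH and 2 of 12 in Matrigel met the otic gate alone.

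**Figure D5:**
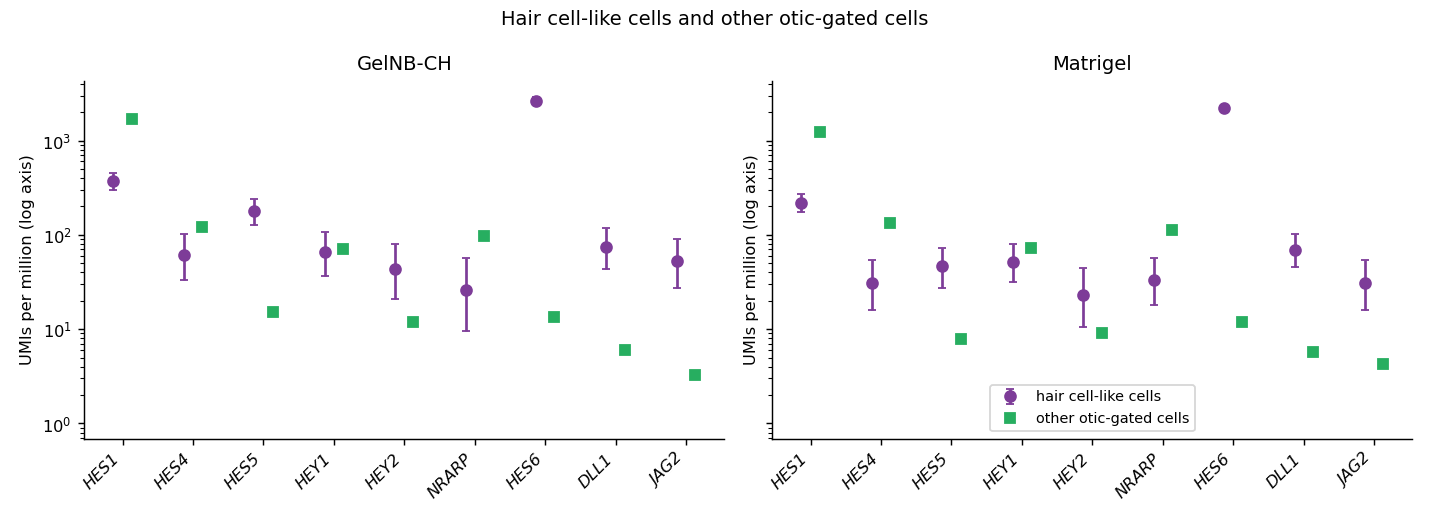
Levels in CPM (y, log axis) of 6 of the 7 genes and of HES6, DLL1 and JAG2 (x) in hair cell-like cells (circles, with exact Poisson 95% intervals) and in the other otic-gated cells (squares), GelNB-CH in the left panel and Matrigel in the right. HES1, HES4 and NRARP sit lower and HES5, HEY2, HES6, DLL1 and JAG2 higher in hair cell-like cells of both libraries. In those cells HES4, HEY2, NRARP and JAG2 each rest on 14 or fewer UMIs per library.

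HES1 also differed between dividing and other cells, and not in the same way in the libraries or in the lineages. Cells that held 2 or more UMIs of MKI67, TOP2A and CENPF, counted together, made up 14.3% of GelNB-CH and 19.2% of Matrigel otic-gated cells. HES1 was 1353 CPM in cycling and 1767 CPM in the other GelNB-CH cells, a ratio of 0.766 (0.754 to 0.777). In Matrigel it was 1220.0 CPM in cycling and 1213 CPM in the other Matrigel cells, a ratio of 1.01 (0.987 to 1.03). Among mesenchyme-gated cells the ratios were 0.773 in GelNB-CH and 0.841 in Matrigel. Glia-gated ratios were 0.795 for GelNB-CH and 0.952 for Matrigel, whose counting interval ran from 0.854 to 1.06. Neuron-gated cells went the other way. Their HES1 ratio was 2.33 for GelNB-CH, on 15 cycling cells, and 3.31 for Matrigel, on 23 cycling cells. The difference between the libraries in the HES1 ratio was not tested. Otic NRARP had ratios of 0.913 and 0.999, and otic HES4 of 1.13 and 0.980. Neuron-gated NRARP had ratios of 5.71 for GelNB-CH and 4.30 for Matrigel, on 20 and 19 UMIs in cycling cells. Cycling otic-gated cells were deeper, with medians of 16274.5 UMIs against 9326.5 in GelNB-CH and 24630 against 15347 in Matrigel, and the part of depth in these ratios was not tested.

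The genes whose levels ran most like each of the 7 were taken over 48 cluster sums of at least 50 cells, from 25 clusters, with Pearson's r of log2(CPM + 1) among 11077 genes. These sums share libraries and cell types, so r is a description and carries no p. HES1 ran most like FBN2 (r = 0.885), CCN1 (r = 0.831) and EPHB4 (r = 0.814). HES4 ran most like ATF3 (r = 0.825), EIF4A3 (r = 0.738) and C8orf82 (r = 0.700), of which ATF3 is a stress-response factor. The nearest for HES5 were LINC00461 (r = 0.809), FEZ1 (r = 0.755) and TUBB2A (r = 0.754), and for HEY1 SDC3 (r = 0.859), A2M (r = 0.845) and RAB31 (r = 0.844). HEY2 had PLAT (r = 0.910), HEYL (r = 0.892) and S100B (r = 0.890) as its nearest genes, S100B being a calcium-binding protein of glia, and HEYL had CDH19 (r = 0.905), COL19A1 (r = 0.902) and HEY2 (r = 0.892), of which CDH19 was the gene that set the glia gate. NRARP ran most like MYH14 (r = 0.839), AIF1L (r = 0.772) and LINC00511 (r = 0.754). Among the 7 themselves HEY2 and HEYL were the closest pair (r = 0.892), followed by HEY1 with HEY2 (r = 0.734) and HES5 with HEY1 (r = 0.724). HES1 and HES5 had the lowest r, -0.454, and HES1 and NRARP, both highest in otic-gated cells, had r = 0.345.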

How the data were processed

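The authors deposited a matrix of raw UMI counts for each library, with genes and cell barcodes as its axes, per the file headers. They come from Cell Ranger, version 7.1.0 per the file headers but 4.0.0 per the labels' protocols. STAR and GRCh38 (hg38) are named in the submitters' processing notes. No source used here gives the annotation version, and coordinates are from GENCODE v29, which matched 34616 of the listed genes.

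Cells with at least 1000 genes and at most 15% mitochondrial UMIs were kept. Scrublet in scanpy 1.11.5, run on each library (expected rate 0.8% for every 1000 barcodes), called 14.2% (GelNB-CH) and 6.55% (Matrigel) doublets, and these were left out. The libraries were clustered in 1 run (2000 variable genes, 30 components, 15 neighbours, Leiden resolution 1.0). Clusters are called by number and leading genes. Raw counts were summed per lineage and library and divided by the sum's total, giving CPM. Cells meeting several gates were left out of the 4 lineages. Clusters weighted alike, or to the same make-up, had 1 weight for both libraries, their share of the cells of both libraries pooled. Only clusters with at least 20 of the summed cells in each library entered. Genes were counted as apart when they differed at least 1.5-fold in either direction with at least 10 CPM in 1 library. With no replicates there are no p-values, and intervals (95%) cover counting error only. Thinning to 5000 UMIs left out 1939 GelNB-CH and 418 Matrigel cells. The ratio and its interval were tested on simulated Poisson counts. These hold no spread between cells, so that test does not cover RNA that few cells carry. TMM factors came from edgeR 4.0.16 under R 4.3.3, and the rest was run in Python 3.11.15 with scipy 1.17.1, pandas 2.3.3 and numpy 2.4.6.

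The members and lists were chosen with earlier results of these data known. Named by rule are the 7 members, the pathway genes with at least 10 CPM and a ratio of at least 1.5 in a lineage, each lineage's highest receptor and ligand, the 3 genes nearest to each member, and the gate genes and SOX2. Genes named for hair cell-like cells and single markers were chosen after their values were seen.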

Additional observations from a re-analysis of the deposited data

Results flagged for a closer look

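HEY2 and NRARP lay on opposite sides of 1 in different lineages. HEY2 had a GelNB-CH over Matrigel ratio of 1.32 (1.18 to 1.496) in otic-gated cells and of 0.635 (0.597 to 0.676) in mesenchyme-gated cells. Otic-gated HEY2 reached 10 CPM in GelNB-CH only, so it was flagged through that library. NRARP had a ratio of 1.76 (1.34 to 2.32) in neuron-gated cells and of 0.866 (0.835 to 0.899) in otic-gated cells. Inside the otic gate NRARP went both ways, with intervals above 1 in clusters 3, 12 and 17 and below 1 in clusters 6, 8 and 13. With clusters weighted alike, the HEY2 ratio in mesenchyme-gated and the NRARP ratio in neuron-gated cells were nearer to 1. With 1 library per group the difference between lineages was not tested.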

How the results depend on the processing

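The count of the 7 genes apart between the libraries was 3 over all kept cells, 1 in otic-, 1 in mesenchyme-, 0 in glia- and 4 in neuron-gated cells. With clusters weighted to the same make-up these counts were 1, 2, 0, 0 and 2. Mesenchyme-gated cells had 2 apart with all deposited barcodes, doublets kept, gate minima doubled, gates on scaled UMIs, several gates allowed or thinned cells, and 0 with TMM scaling. Glia-gated cells had 1 apart with TMM scaling, which moved every log2 ratio there by 0.15 and elsewhere by under 0.09. Otic-gated cells had 3 apart among cells of 8000 to 16000 UMIs. The lineage with the highest level held for at least 6 of 7 genes in GelNB-CH and at least 5 of 7 in Matrigel, and the exceptions were HES4 and, among cells of 8000 to 16000 UMIs in Matrigel, HES1. Of 329 ratios recomputed under 10 alternatives, 41 changed side of 1, none of them a ratio counted as apart, and 22 moved by over 1.5 times. HEYL in neuron-gated cells, with 31 GelNB-CH and 18 Matrigel UMIs, had a ratio of 1.86 and of 0.597 once thinned. HEY2 and HEYL in mesenchyme-gated cells were at 0.384 and 0.388 with several gates allowed, and HEY1 in neuron-gated cells at 2.09. The cause of these changes was not tested. Leaving out the 78 barcodes found in both libraries, an alternative chosen after seeing the data, changed no count. No paired analysis was possible because each group has 1 library.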
